A study of Canis lupus familiaris with 36 samples.

Results

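In CLBL-1, a canine B-cell lymphoma line incubated with DMSO alone, 249 genes had a lower transcript level at 72 h than at 24 h, by a median log2 ratio of -0.98. These genes were chosen by their measured values in DMSO, so their decline in DMSO describes the choice and was not tested. For each gene, the read count was divided by the total of its library and scaled to CPM, a level relative to library size, and the 3 libraries of a group were averaged. The log2 ratio of DMSO at 72 h to DMSO at 24 h was formed after 0.5 CPM had been added to both means. Genes at 2 CPM or more on average and with a log2 ratio of at most -0.8 were taken. They were 249 of the 30424 identifiers in the count table and are called time-lowered genes below. Of the 10037 genes at 2 CPM or more, called expressed genes, they made up 2.48%. A further 557 of the expressed genes had a log2 ratio of 0.8 or more in the opposite direction.

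CLBL-1 is an established line from a canine diffuse large B-cell lymphoma. Cells were incubated with DMSO, with 1 µM ibrutinib (Ibr), with 5 µM AS-605240 (AS) or with both inhibitors at these concentrations (Ibr+AS), for 24, 48 or 72 h. Every combination was sequenced at the passages p121, p126 and p128. These stand for replicates 1, 2 and 3 in this order throughout, and are serial cultures of 1 line rather than separate donors. P-values therefore measure the spread between cultures of this line. The control cells received as much DMSO as the cells given both inhibitors, and no cells without DMSO were analysed here, so time in culture and time with DMSO cannot be told apart. How much DMSO the cells with a single inhibitor received is not stated. In comparisons with them, inhibitor and amount of DMSO therefore cannot be told apart.

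Ibrutinib blocks BTK, the kinase that passes the signal of the B-cell receptor on to phospholipase C gamma and NF-kB. AS-605240 inhibits PI3K gamma, which makes a membrane lipid that recruits AKT and also BTK. Cells that divide in a closed well change their own medium, so a vehicle control followed over days is a time series of its own, against which treated cells of the same age are read.

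Each of the 36 libraries held between 9941919 and 14703839 counted reads (median 11888025), and the 50 most abundant genes took 16% to 23.6% of the reads of a library. Ibr 72 h replicate 3 was left out of all tests. The study had set this library aside too. Within the Ibr+AS groups, replicate 1 of 24 h and replicate 3 of 72 h stood apart. Medians that rest on either library are mostly given without it as well, while the counts of genes beside each test include it. As far as the sample-sheet numbers in the table header tell, all libraries of p121 came from one sequencing run and all of p128 from another. The changes with time inside these passages are therefore changes within a run. In p126 all 24 h libraries and the DMSO and Ibr libraries of 48 h shared the run of p121. Its AS and Ibr+AS libraries of 48 h and all of 72 h shared the run of p128. In p126, changes from 24 h to 72 h and AS or Ibr+AS against DMSO at 48 h thus cross runs. Of 28 marker genes of B cells, T cells, myeloid cells and plasma cells, 1 could be paired with an identifier. This was LYZ, a lysozyme gene listed as a myeloid marker, at 68.2 to 287 CPM. None of the defining B-cell markers on that list could be paired. TNFRSF13C, the receptor for the B-cell survival factor BAFF and not one of the 28, was at 71.0 to 281 CPM (median 132).

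In DMSO, the log2 ratio of the time-lowered genes ran from -2.38 to -0.80 with a median of -0.98, and 116 of them were at -1 or lower. Most of the decline came after 48 h. The median log2 ratio was -0.26 from 24 h to 48 h and -0.76 from 48 h to 72 h. The means were ordered 24 h above 48 h above 72 h in 229 of the 249 genes, 230 were lower at 48 h than at 24 h, and 248 were lower at 72 h than at 48 h. By 48 h the median gene had covered 25.6% of its log2 change, and 22 genes had covered 50% or more of it.

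All 3 passages entered the means that chose the genes, so a decline in them describes the choice. The median log2 ratio of 72 h to 24 h was -0.98, -1.10 and -0.97 in p121, p126 and p128, and each of the 249 genes was lower at 72 h in each passage. The 3 DMSO libraries of 72 h lay below all 3 of 24 h in 249 genes, as they did in 34.2% of the expressed genes. The 72 h libraries lay below all 48 h libraries in 236 genes (27.2% of expressed genes), and the 48 h libraries below all 24 h libraries in 120 (15.9%). Because the DMSO libraries chose the genes, nothing is read from these medians and counts. When the same rule was applied to any 2 passages and the result was read in the third, 275 of 276 genes were lower in p121 with a median of -0.90. The counts were 245 of 247 with a median of -1.02 in p126, and 288 of 289 with a median of -0.89 in p128, while 53.6%, 55.6% and 52.6% of the expressed genes were lower at 72 h in these passages.

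The threshold cut through a continuous range. The 3 genes just inside it had ratios of -0.81, -0.80 and -0.80, and their mean levels went from 30.7 to 17.4, from 117 to 67.2 and from 16.9 to 9.5 CPM. Just outside, NCF4, a subunit of the phagocyte NADPH oxidase, went from 188 to 108 CPM, and 2 further genes went from 12 to 6.66 and from 3.05 to 1.54 CPM.

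Averaged over all libraries, the time-lowered genes had levels between 2.07 and 4298 CPM, with a median of 24.8 CPM against 37.0 CPM for all expressed genes. There were 87 genes under 10 CPM and 50 genes at 100 CPM or more. Together they took 3.37% to 3.47% of all reads in the DMSO libraries of 24 h, 2.69% to 2.99% at 48 h and 1.65% to 1.76% at 72 h. In treated libraries of 72 h it was 2.39% to 2.57% in AS, 2.94% and 3.02% in the tested Ibr libraries (2.51% in the one left out) and 2.75% to 3.07% in Ibr+AS. At 24 h it was 2.95% to 3.14% in AS, 2.87% to 3.09% in Ibr and 2.45% to 2.72% in Ibr+AS. The genes were taken for a high level in DMSO at 24 h and a low level at 72 h, so nothing is read from the place of treated libraries above or below DMSO at these times. In bulk RNA, fewer cells that express a gene and less of its RNA per cell cannot be told apart. Treated and DMSO libraries of 24 h or 72 h were not compared in a test, because the DMSO values of these times chose the genes.

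**Figure D1:**
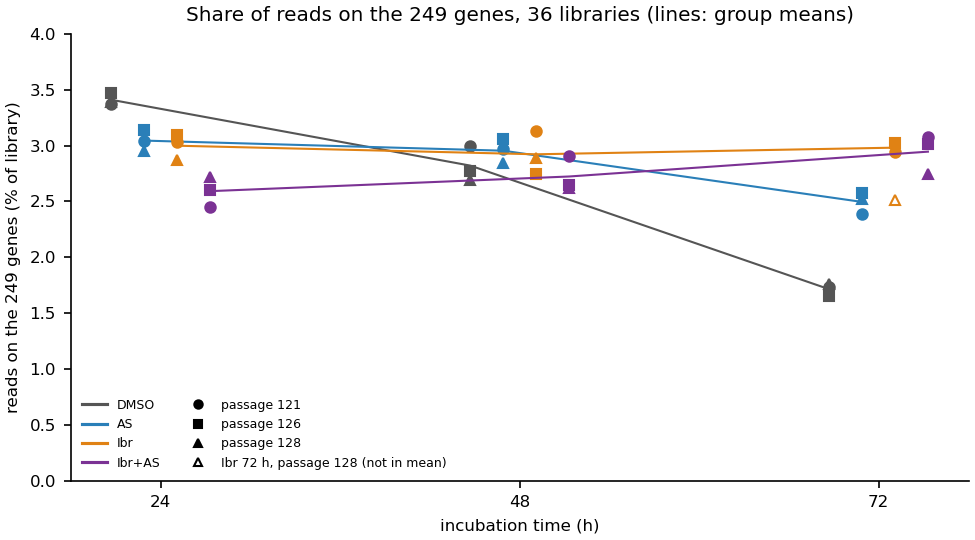
Share of all counted reads (%) that fell on the 249 time-lowered genes, by incubation time in hours and treatment, with one point for each library. DMSO runs from 3.37% to 3.47% at 24 h down to 1.65% to 1.76% at 72 h, whereas Ibr+AS libraries lie at 2.45% to 2.72% at 24 h and at 2.75% to 3.07% at 72 h.

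Whether the same genes change with time in treated cells was tested between 72 h and 24 h within each treatment, in which no DMSO library takes part. The test was edgeR's quasi-likelihood test with passage as a block on all 18670 genes with at least 2 reads, and a gene rose or fell if its Benjamini-Hochberg adjusted p-value was at most 0.05. A differentially expressed gene (DEG) had in addition an absolute log2 fold change (FC) above 1. Percentages in parentheses give the share of the 10037 expressed genes that met the same condition.

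In AS, 77 of the 249 genes fell (3.44%) and 1 rose (6.6%). Of these, 12 were DEGs, and all 12 were lower (1.24% in either direction). The median log2 FC was -0.32 against -0.01 for all expressed genes, and 224 genes had a negative estimate. All AS libraries of 72 h lay below all of 24 h in 143 genes (13.3%) and above them in 3 (17.9%). Passage by passage, the median on the CPM scale was -0.38, -0.26 and -0.23, which gave -0.29 ± 0.08 (SD, n = 3).

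In Ibr, 34 genes fell (3.69%) and 8 rose (4.06%), with 10 DEGs that were all lower (1.24% in either direction). Without replicate 1 or replicate 2 a single Ibr library of 72 h remains, so no counts are given for these fits. The median log2 FC was -0.09 against -0.01. The estimates were more evenly divided than in AS, with 153 negative and 96 positive. The 2 libraries of 72 h lay below the 3 of 24 h in 78 genes (22%) and above them in 58 (29.3%). The passage medians on the CPM scale were -0.11 and -0.06, and -0.21 in the passage whose 72 h library was left out.

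In Ibr+AS, 49 genes rose (7.85%) and 26 fell (8.31%), with 4 DEGs higher and 3 lower (1.13% in either direction). The median log2 FC was 0.11 against 0.02, and 148 genes had a positive estimate. All libraries of 72 h lay above all of 24 h in 66 genes (15.3%) and below them in 18 (8.36%). The passage medians on the CPM scale were 0.32, 0.19 and 0.01, or 0.18 ± 0.16 (SD, n = 3), while those of all expressed genes were 0.17, 0.09 and -0.04 on that scale. The median log2 FC was 0.08 without replicate 1 of 24 h, and 0.11 without replicate 3 of 72 h.

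**Figure D2:**
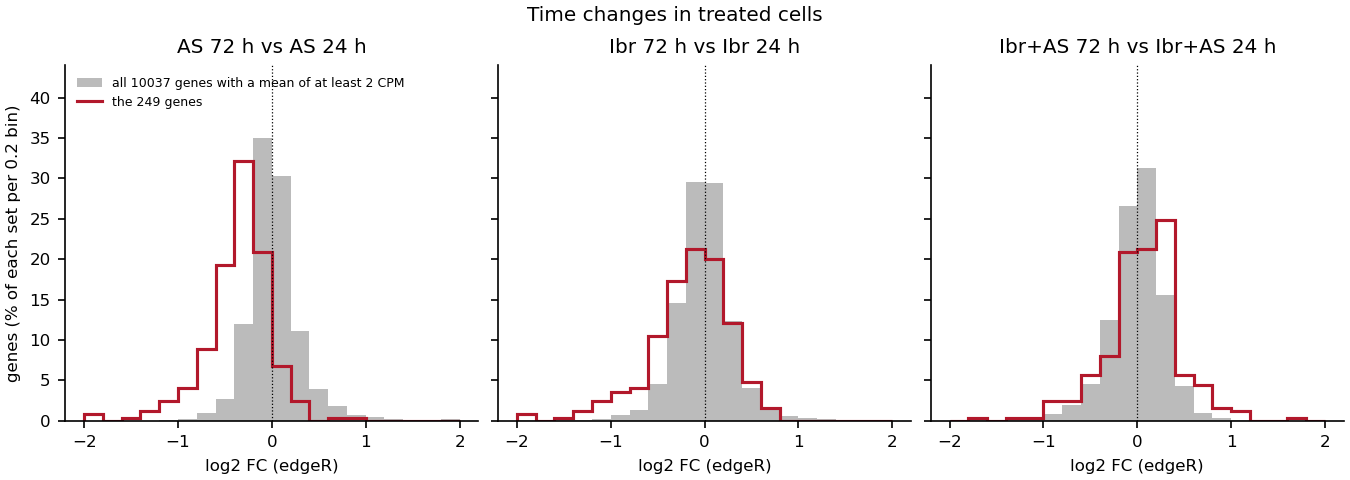
Distribution of the log2 FC from 24 h to 72 h in AS, Ibr and Ibr+AS (x axis, log2 scale) for the 249 time-lowered genes and for all 10037 expressed genes, as percent of the genes of each set (y axis). The time-lowered genes are centred at -0.32 in AS, at -0.09 in Ibr and at 0.11 in Ibr+AS.

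The time change itself differed between the treatments. From AS to Ibr+AS the change was more positive in 83 genes (4.93%) and more negative in 2 (6.71%). There were 13 DEGs, all more positive (2.33% in either direction). Without replicate 3 there were 27 DEGs, and no share of all expressed genes is given for that fit. The median difference of the log2 FC was 0.42, and 212 of the 249 estimates were positive. On the CPM scale the median difference was 0.68, 0.45 and 0.25 in the 3 passages. On that scale the median changes of all expressed genes were 0.17, 0.09 and -0.04 in Ibr+AS. In AS they were -0.01, 0.03 and 0.02. From Ibr to Ibr+AS the change was more positive in 13 genes (0.777%) and more negative in 3 (2.05%). There were 5 DEGs, all more positive (0.797% in either direction). The median difference was 0.23, and it was 0.45 and 0.23 in p121 and p126 on the CPM scale. All expressed genes had median changes of 0.01 and 0.02 in Ibr in these passages on that scale. The difference from AS had a median of 0.39 without replicate 1 of Ibr+AS 24 h and of 0.43 without replicate 3 of Ibr+AS 72 h.

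The overlap of these sets was counted between treatments, whose libraries are separate. Of the 77 that fell in AS and the 34 that fell in Ibr, 29 were shared, which is 37.7% of the first and 85.3% of the second set. Over all expressed genes the corresponding shares were 37.4% and 34.9%. Of the 26 genes that fell in Ibr+AS, 17 had also fallen in AS (65.4%, or 22.1% of those in AS), against 9.95% and 24.1% over all expressed genes. A further 11 genes fell in AS and rose in Ibr+AS, which is 14.3% of the genes that fell in AS and 22.4% of the 49 that rose in Ibr+AS, against 9.28% and 4.06% over all expressed genes. More of the time-lowered than of all expressed genes fell in AS to begin with, and these overlaps were not tested.

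**Figure D3:**
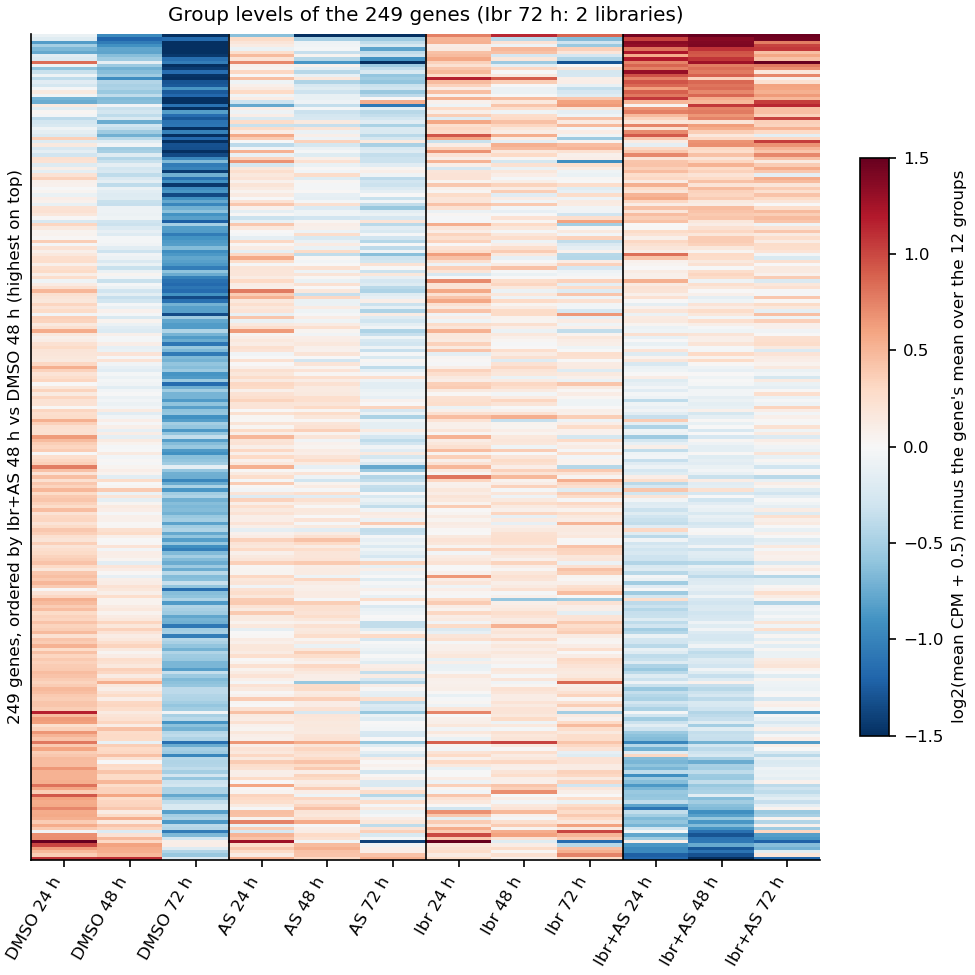
Levels of the 249 time-lowered genes (rows, ordered by the difference between Ibr+AS and DMSO at 48 h) in each of the 12 groups (columns), as log2 of the mean CPM + 0.5 minus the mean of the gene over the groups. The DMSO column of 72 h is below that of 24 h in every row, as the choice of the genes requires, and the Ibr+AS columns are high in the upper and low in the lower rows.

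At 48 h the DMSO libraries had no part in the ratio that chose the genes, only in the level minimum, and each treatment was compared with them. AS raised 24 of the time-lowered genes (2.85%) and lowered 3 (3.51%), with 2 DEGs (0.697%), both higher, and a median log2 FC of 0.10. Ibr raised 60 (9.68%) and lowered 5 (8.26%), with 12 DEGs (2.04%), of which 11 were higher, and a median of 0.18. With each single inhibitor, more of these genes were thus higher than lower relative to DMSO at 48 h. Ibr+AS raised 80 (23.9%) and lowered 60 (26.6%), with 33 DEGs higher and 11 lower (8.19% in either direction). The lowered genes were 24.1% of the 249, near the share of all expressed genes, and the raised genes 32.1%. The median was -0.01, with 125 negative and 124 positive estimates. These 3 comparisons share the DMSO libraries of 48 h.

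At 24 h the combination was compared with each single inhibitor. Against Ibr, 76 genes were lower in Ibr+AS (16.9%) and 32 higher (16%), with 13 DEGs lower and 1 higher (2.55% in either direction) and a median log2 FC of -0.19. Against AS, 82 were lower (22%) and 43 higher (19.2%), with 11 DEGs lower and 13 higher (4.57% in either direction) and a median of -0.20. Most of the time-lowered genes that differed at this early time were therefore lower with both inhibitors than with one. Replicate 1 of Ibr+AS 24 h had a median log2 CPM of 4.37 over these genes against 4.49 and 4.61 in the other libraries of its group, and without it the medians were -0.18 and -0.16. Both comparisons share the Ibr+AS libraries of 24 h with each other and with the change in Ibr+AS over time.

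The genes were also divided by their response to Ibr+AS at 48 h and described in comparisons with other libraries, beside all expressed genes with the same response. The 80 genes that Ibr+AS raised over DMSO at 48 h had a median log2 FC of -0.37 from 24 h to 72 h in AS, where 38 fell (47.5%) and 1 rose. Of the 2403 expressed genes raised at 48 h, 6.87% fell in AS, with a median of -0.03. At 24 h the 80 genes were higher with both inhibitors than with AS by a median of 0.39, and 40 of them were higher (50%) and 3 lower in that test. The expressed genes raised at 48 h were higher in this test too, with a median of 0.43 and 64.1% higher. In Ibr+AS over time, 18 of the 80 fell (22.5%, against 24.2%) and 9 rose (11.2%, against 2.41%). The 60 genes that Ibr+AS lowered at 48 h were lower at 24 h than in AS by a median of 0.62 on the log2 scale, and 52 of them were lower (86.7%) and 0 higher by the adjusted p-value. For the 2671 expressed genes lowered at 48 h the median was -0.39, and 63.2% were lower. From 24 h to 72 h in Ibr+AS, 28 of the 60 genes rose (46.7%, against 20.5%) and 3 fell (5%, against 2.62%), with a median of 0.32 against 0.17. The direction at 24 h and over time in Ibr+AS was thus shared with the expressed genes of the same response at 48 h. The other 109 genes had a median of -0.24 against AS at 24 h and of 0.11 over time in Ibr+AS.

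Their mean levels were 27.3 CPM (median) for the 80 raised genes, 46.5 CPM for the 60 lowered and 15.1 CPM for the rest. The decline in DMSO was alike in size, with median log2 ratios of -1.03, -0.97 and -0.95.

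Symbols were known for 23 of the 249 genes, since identifiers were named only where supplementary tables of the study pair them with a symbol. As read here, these tables paired 1068 identifiers, fewer than the study analysed, and the named genes are not a random sample. They are described by their textbook roles. SEMA6A, PLXNA1, ZDHHC14, FAM13B, TRAM2, METTL1, SRSF6, PLEC, WDR46, EIF4G2, VARS1 and POP1 are the 12 with the lowest ratios among genes with a symbol. SCAF8, ADCY7, MFNG, LMTK2 and GOLM1 join PLEC, EIF4G2 and VARS1 among the 8 most abundant, and TRIM36 was among the strongest calls. ARRB1, TCF19, THADA, SETD1B and PLAA were added after their values had been seen.

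**Figure D4:**
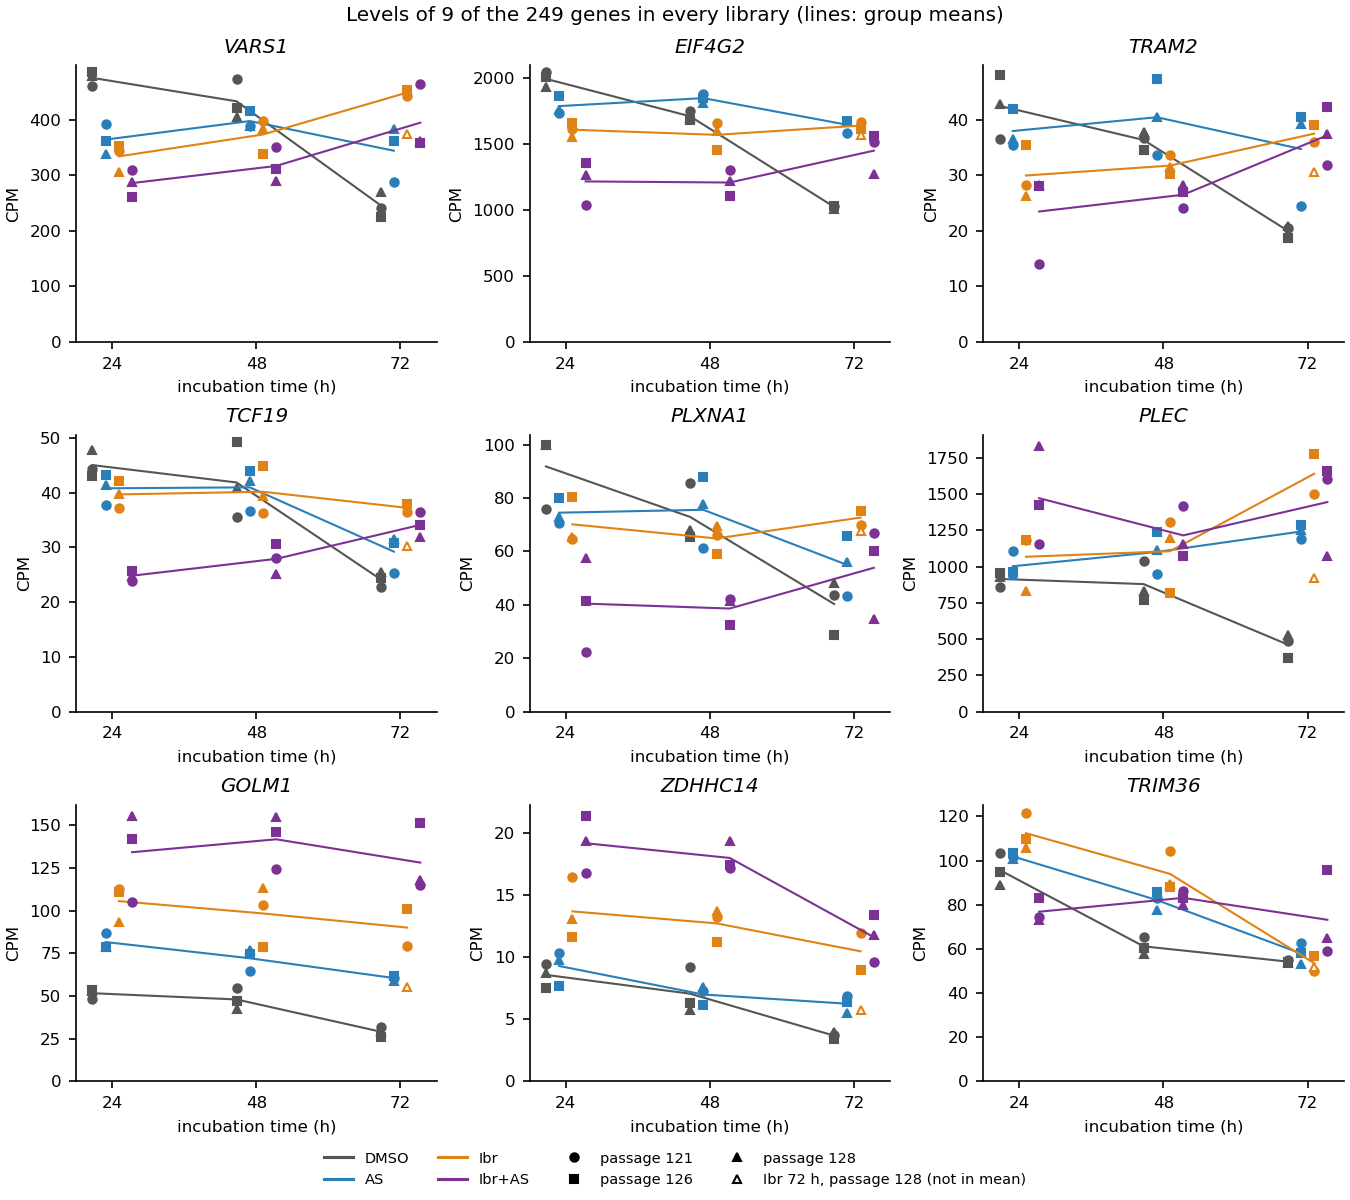
Level of named time-lowered genes in each library (CPM, axes from 0) by incubation time in hours and treatment, with one point per library and a line through the group means. All DMSO libraries of 72 h lie below those of 24 h, and for GOLM1 the Ibr+AS libraries of 48 h (125 to 155 CPM) lie above those of DMSO (42.1 to 54.6 CPM).

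Genes that serve translation and RNA processing were among them. VARS1, the valyl-tRNA synthetase, was at 461, 485 and 479 CPM in DMSO at 24 h, at 474, 420 and 405 CPM at 48 h and at 242, 225 and 271 CPM at 72 h. The 72 h libraries lay far below the others, and those of 24 h and 48 h overlapped. In Ibr+AS it went the other way, from 310, 261 and 287 CPM at 24 h to 464, 358 and 362 CPM at 72 h, without overlap (log2 FC 0.40 ± 0.09 (SE), adjusted p = 0.0014). This call was lost when only the groups compared were fitted (adjusted p = 0.088). It also rose in Ibr (0.38 ± 0.10, adjusted p = 0.016), but not past the threshold without replicate 3. The fits without replicate 1 or replicate 2 keep a single Ibr library of 72 h and are not read for this rise. At 48 h VARS1 was lower in Ibr+AS than in DMSO, at 351, 311 and 289 CPM (-0.32 ± 0.09, adjusted p = 0.0037). This call was lost without replicate 3 (adjusted p = 0.053).

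EIF4G2, a relative of the scaffold eIF4G that works in translation initiation, was one of the most abundant of these genes. It had 2045, 2004 and 1932 CPM in DMSO at 24 h, 1753, 1681 and 1696 CPM at 48 h and 1033, 1032 and 1005 CPM at 72 h, with little spread inside each group. In Ibr+AS it stood at 1305, 1104 and 1216 CPM at 48 h, below all DMSO libraries of that time (-0.37 ± 0.09, adjusted p = 0.00044). The difference was already present at 24 h, with 1035, 1352 and 1262 CPM in Ibr+AS against 1737, 1865 and 1760 CPM in AS (-0.46 ± 0.09, adjusted p = 1.9e-05). Its change over time passed the threshold in none of the 3 treatments, with log2 FC of -0.13, -0.02 and 0.19 in AS, Ibr and Ibr+AS.

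POP1 is a protein subunit of RNase P and RNase MRP, which trim precursor tRNA and ribosomal RNA. Its DMSO libraries had 92.1, 91.8 and 92.7 CPM at 24 h, 81.1, 82.0 and 80.6 CPM at 48 h and 51.3, 45.0 and 46.6 CPM at 72 h. These triplets were tight and fully apart. The time change was more positive in Ibr+AS than in AS (difference 0.50 ± 0.13, adjusted p = 0.0072), a call that was lost without replicate 1 and without replicate 2 (adjusted p = 0.08 and 0.11). Its rise within Ibr+AS (0.27 ± 0.09, adjusted p = 0.049) was lost in 7 of 13 alternative analyses.

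METTL1 sets the 7-methylguanosine mark on tRNA. It had 32.8, 31.6 and 29.4 CPM in DMSO at 24 h and 13.2, 12.8 and 19.6 CPM at 72 h, the highest 72 h value being that of p128. In AS it fell from 23.2, 22.8 and 23.5 CPM to 13.7, 14.9 and 18.1 CPM (-0.58 ± 0.15, adjusted p = 0.014), again without overlap. WDR46, a nucleolar protein needed for processing of ribosomal RNA, had 73.9, 80.9 and 80.6 CPM in DMSO at 24 h and 34.4, 42.1 and 42.0 CPM at 72 h. None of the 10 tests was passed by WDR46, and its log2 FC lay between -0.20 and 0.26. The splicing factor SRSF6 was low, at 7.80, 6.05 and 7.06 CPM at 24 h and 4.87, 2.54 and 2.31 CPM at 72 h, and passed no test. At 48 h its DMSO libraries scattered from 2.22 to 12.2 CPM. Whether a near-identical gene copy took some of its reads was not tested, and with this scatter its level is uncertain.

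SCAF8 binds the tail of RNA polymerase II. It fell in AS from 176, 165 and 156 CPM to 125, 125 and 114 CPM (-0.47 ± 0.11, adjusted p = 0.0039), which was lost without the passage block (adjusted p = 0.067). At 48 h it was higher in Ibr, at 214, 133 and 139 CPM, than in DMSO, at 150, 113 and 102 CPM (0.47 ± 0.11, adjusted p = 0.0022). The groups overlapped in CPM, while in each passage Ibr stood above DMSO. TCF19, a nuclear protein linked to the G1/S step of the cell cycle, showed opposite changes in AS and Ibr+AS. In AS it fell from 37.7, 43.3 and 41.4 CPM to 25.4, 30.8 and 31.5 CPM (-0.50 ± 0.11, adjusted p = 0.0005), and in Ibr+AS it rose from 23.9, 25.7 and 24.9 CPM to 36.4, 34.1 and 31.8 CPM (0.40 ± 0.11, adjusted p = 0.0063). The difference of the changes was 0.90 ± 0.15 (adjusted p = 5.9e-06), and the rise in Ibr+AS lost its call without replicate 1 or replicate 3. SETD1B, a histone H3 lysine 4 methyltransferase, had 41.6, 43.8 and 42.4 CPM in DMSO at 24 h and 25.9, 17.1 and 26.7 CPM at 72 h, and passed none of the 10 tests.

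A ligand and a receptor of one signalling family had the lowest ratios of the named genes. SEMA6A, a transmembrane semaphorin, was at 35.8, 37.1 and 33.9 CPM in DMSO at 24 h and at 15.2, 12.5 and 15.4 CPM at 72 h. PLXNA1, a plexin receptor through which semaphorins signal, went from 76.0, 99.8 and 99.7 CPM to 43.8, 28.8 and 48.3 CPM. In Ibr+AS at 48 h PLXNA1 stood at 42.0, 32.3 and 41.6 CPM, below the 85.6, 65.3 and 67.9 CPM of DMSO at 48 h (-0.79 ± 0.24, adjusted p = 0.016). This call was lost without replicate 2. SEMA6A passed none of the tests, and its Ibr+AS libraries of 24 h were far apart, at 12.3, 28.6 and 31.7 CPM, with the lowest in the library that stood apart.

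Among the other signalling genes, ADCY7, an adenylyl cyclase, and MFNG, a fringe glycosyltransferase that modifies Notch receptors, were raised by the combination. MFNG had 317, 331 and 312 CPM in Ibr+AS at 48 h against 219, 247 and 222 CPM in DMSO (0.61 ± 0.10, adjusted p = 5.2e-07). Against AS at 24 h, where it had 182, 189 and 205 CPM, it was higher in Ibr+AS at 354, 281 and 298 CPM (0.80 ± 0.10, adjusted p = 5e-10). ADCY7 had 245, 223 and 237 CPM in Ibr+AS at 48 h against 189, 159 and 175 CPM in DMSO (0.56 ± 0.13, adjusted p = 0.0017). Neither gene changed past the threshold from 24 h to 72 h in any treatment. In DMSO, MFNG had 211, 256 and 262 CPM at 24 h and 134.2, 127.6 and 146.0 CPM at 72 h. LMTK2, a membrane-bound kinase, was lower in Ibr+AS than in either single treatment at 24 h (-0.47 ± 0.15 against Ibr and -0.42 ± 0.15 against AS, adjusted p = 0.031 and 0.044). The call against Ibr was lost in 2 of 13 alternatives. The call against AS was lost in 6 of them, including the fit without replicate 1 of Ibr+AS 24 h. ARRB1, a beta-arrestin, and FAM13B passed no test.

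GOLM1 is a Golgi membrane protein. At 48 h it had 54.6, 47.4 and 42.1 CPM in DMSO, 64.9, 74.5 and 77.2 CPM in AS, 103, 78.8 and 113 CPM in Ibr and 125, 146 and 155 CPM in Ibr+AS, and no library of one treatment overlapped the next in this order. The log2 FC over DMSO were 0.61 ± 0.12, 1.09 ± 0.12 and 1.69 ± 0.12, with adjusted p-values of 0.00067, 2e-09 and 8.1e-16. In AS it fell over time from 87.0, 79.0 and 79.0 CPM to 60.8, 62.0 and 59.0 CPM (-0.45 ± 0.12, adjusted p = 0.013). The fall lost its call without replicate 3, without the p128 libraries of 72 h and with all 36 libraries (adjusted p up to 0.17). The call for AS at 48 h was lost without replicate 3, and the inhibitors were not tested against each other at 48 h.

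ZDHHC14 attaches palmitate to proteins. It was low in DMSO, at 9.49, 7.55 and 8.71 CPM at 24 h, 9.19, 6.29 and 5.72 CPM at 48 h and 3.70, 3.38 and 3.96 CPM at 72 h. Under Ibr+AS it had 17.2, 17.5 and 19.4 CPM at 48 h (1.49 ± 0.15 over DMSO, adjusted p = 3.6e-15), and under Ibr 13.3, 11.2 and 13.7 CPM (0.91 ± 0.16). Under AS it had 7.24, 6.12 and 7.64 CPM, which overlapped with DMSO (0.02 ± 0.17, adjusted p = 1). It still fell with time in Ibr+AS, from 16.8, 21.4 and 19.4 CPM at 24 h to 9.66, 13.4 and 11.8 CPM at 72 h (-0.80 ± 0.14, adjusted p = 1.3e-05).

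TRAM2, which takes part in translocation of proteins into the endoplasmic reticulum, rose in Ibr+AS from 14.1, 28.1 and 28.2 CPM at 24 h to 31.9, 42.2 and 37.4 CPM at 72 h (0.62 ± 0.13, adjusted p = 0.0004). Its lowest value again came from replicate 1 of Ibr+AS 24 h, and the call held without that library. PLEC, the cytoskeletal linker plectin, had 859, 955 and 931 CPM in DMSO at 24 h, 1037, 767 and 835 CPM at 48 h and 490, 369 and 529 CPM at 72 h. Only 5.8% of its log2 change in DMSO was present at 48 h. In Ibr+AS at 48 h it was higher, at 1416, 1070 and 1159 CPM (0.59 ± 0.18, adjusted p = 0.014).

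TRIM36, a RING-type ubiquitin ligase, stood out by an early decline. In DMSO it had 103, 95.0 and 89.0 CPM at 24 h, 65.2, 60.5 and 57.8 CPM at 48 h and 54.8, 54.1 and 53.8 CPM at 72 h, so that 78.9% of its log2 change was present at 48 h. In AS it fell from 102, 103 and 101 CPM to 62.8, 58.0 and 53.1 CPM (-0.83 ± 0.10, adjusted p = 2.9e-11), and in Ibr from 122, 110 and 106 CPM to 50.1 and 57.0 CPM (-1.15 ± 0.11, adjusted p = 1.2e-14). Nothing is read from how these levels compare with DMSO at 72 h, which chose the gene. In Ibr+AS it had 74.3, 83.0 and 73.2 CPM at 24 h and 58.9, 95.6 and 65.1 CPM at 72 h, which overlapped (-0.14 ± 0.10, adjusted p = 0.48). The change in Ibr+AS differed from that in AS by 0.69 ± 0.14 (adjusted p = 0.00018) and from that in Ibr by 1.00 ± 0.15 (adjusted p = 4.3e-07). At 24 h TRIM36 was already lower in Ibr+AS than in AS (-0.31 ± 0.10, adjusted p = 0.0085) and than in Ibr (-0.47 ± 0.10, adjusted p = 6.2e-05). These tests share the Ibr+AS libraries of 24 h with the differences of the changes. At 48 h it was higher than in DMSO by 0.45, 0.68 and 0.57 in AS, Ibr and Ibr+AS.

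PLAA, which works with the ubiquitin-dependent segregase p97, and THADA passed no test. Of the 23 named genes, 6 fell and 0 rose in AS over time, namely ZDHHC14, METTL1, SCAF8, TCF19, GOLM1 and TRIM36. In Ibr TRIM36 fell and VARS1 rose. In Ibr+AS ZDHHC14 fell and TRAM2, VARS1, POP1 and TCF19 rose. At 48 h Ibr+AS lowered 5 and raised 6 of them.

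**Figure D5:**
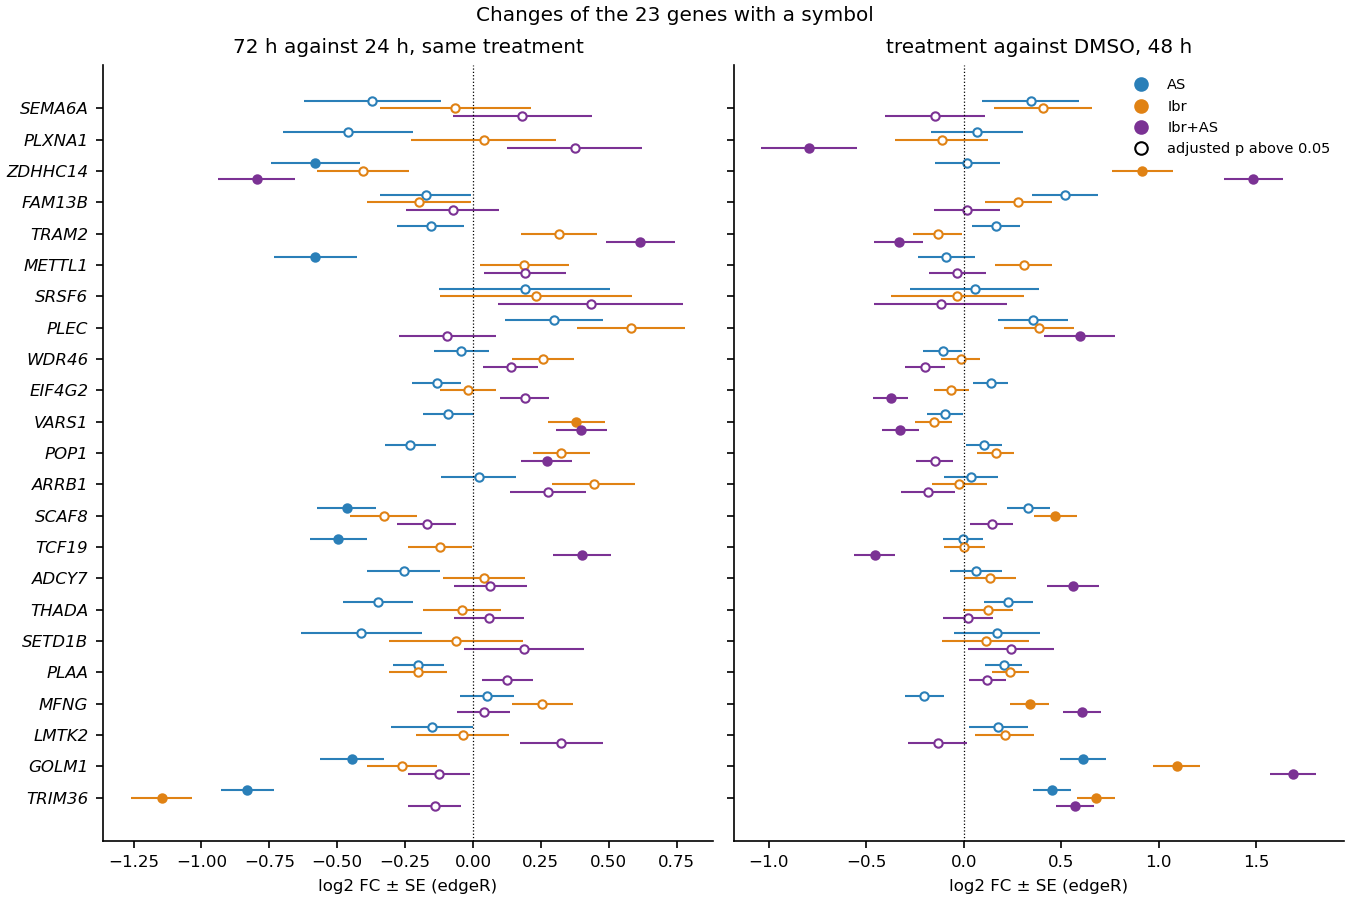
Log2 FC of the 23 named time-lowered genes (rows) from 24 h to 72 h in AS, Ibr and Ibr+AS and against DMSO at 48 h, with bars of 1 standard error. TRIM36 has the most negative change over time in Ibr (-1.15) and GOLM1 the largest difference from DMSO at 48 h under Ibr+AS (1.69).

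Larger changes were found among genes without a symbol, of which 4 are given by identifier, chosen after their values had been seen. ENSCAFG00000012845 had 5.40, 6.06 and 5.25 CPM in DMSO at 48 h and 0.778, 0.181 and 0.397 CPM in Ibr+AS (log2 FC -3.46 ± 0.32, adjusted p = 1.7e-16). It was low with both inhibitors at 24 h as well, at 0.514, 0.746 and 1.00 CPM. ENSCAFG00000010192 was lower at 48 h, too (-2.10 ± 0.30, adjusted p = 3.4e-08). In the opposite direction, ENSCAFG00000009850, which had the lowest ratio of all 249 genes, was listed at 2.36, 2.31 and 2.02 CPM in DMSO at 24 h and at 0.0686, 0 and 0 CPM at 72 h, where no library held more than 3 reads. Under Ibr+AS at 48 h it had 7.78, 7.42 and 9.36 CPM against 0.843, 0.997 and 1.19 CPM in DMSO (3.14 ± 0.26, adjusted p = 2.4e-18). Its mean of 3.63 CPM met the minimum of 2 CPM only through its Ibr and Ibr+AS libraries. Its test against DMSO is therefore tied to the choice, and nothing is read from it. ENSCAFG00000046178 had 14.3, 18.4 and 17.7 CPM in Ibr+AS at 48 h against 1.43, 2.99 and 2.94 CPM in DMSO (2.90 ± 0.31, adjusted p = 6e-08).

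Genes of growth, metabolism, signalling, stress and immune responses and of cell types were looked up in 20 lists of 578 genes, written from textbook knowledge. Of these, 49 could be paired, 46 were measured and 0 were time-lowered genes, so the lists describe relatives only. The 3 paired genes of ribosome biogenesis had log2 ratios in DMSO short of the threshold, namely NHP2 (-0.52), BYSL (-0.73) and UTP20 (-0.65), and in Ibr+AS over time UTP20 rose by 0.33 ± 0.10 (adjusted p = 0.024). The 3 paired genes of heat shock and protein folding were similar in DMSO, with HSPA4 at -0.65, HSPA9 at -0.54 and CRELD2 at -0.55, and all 3 rose in Ibr+AS, by 0.41, 0.58 and 0.40 (adjusted p = 0.00035, 3.8e-07 and 0.013). HSPA9 also rose in Ibr (0.32 ± 0.10, adjusted p = 0.038). In AS none of these 6 genes passed the test. The only paired gene of the DNA replication list, MCM5, a subunit of the replicative helicase, rose in Ibr+AS by 0.59 ± 0.09 (adjusted p = 7e-07). Of the 5 paired genes of the serine, one-carbon and amino acid list, 2 rose in Ibr+AS. These were SHMT2 (0.65, adjusted p = 3e-07) and NARS1 (0.37, adjusted p = 0.0025), with ratios in DMSO of 0.56 and -0.01. The 3 paired genes of cholesterol synthesis, ACAT2, SQLE and SREBF2, had positive ratios in DMSO and rose over time in all 3 treatments. In the opposite direction in Ibr+AS, 2 of the 4 paired interferon genes fell, as did 1 gene each of the immediate early, myeloid, plasma cell and B-cell identity lists, the last being TNFRSF13C (-0.59, adjusted p = 4.2e-06). Against 7.85% of the expressed genes that rose and 8.31% that fell in Ibr+AS, these lists are too short, and their pairing too selective, to be read as pathways.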

How the data were processed

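Poly-A RNA of 36 CLBL-1 cultures was sequenced. The authors mapped the reads to CanFam3.1 with STAR 2.7.5a and deposited raw read counts per Ensembl gene, without normalization. Which strand column was kept is not given in the sources used here, so reads of antisense partners may be mixed. One label of DMSO 24 h replicate 3 names p126 and another p128, and p128 was used. The 72 h wells of p128 were harvested later than the schedule of the other passages.

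Genes were chosen as stated at the opening, and 1 identifier was left out. The genes, lists and tests were chosen with earlier results of these data known. Counts of 35 libraries (without Ibr 72 h replicate 3) were fitted in R 4.3.3 with edgeR 4.0.16 (TMM factors, robust quasi-likelihood, terms passage and group, genes with at least 2 reads), which gave 18670 genes. Adjustment (Benjamini-Hochberg) ran over all of them. The procedure was tested on simulated data. DESeq2 1.42.0 was an alternative. Depth was 9941919 to 14703839 reads, and 36 pairs of libraries within groups held 0 identical pairs. Deviations from the group means correlated with a median r of 0.06 between groups for the same passage (187 pairs) and of -0.03 for different passages (374 pairs). Passage is also a term of the study's own model.

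A gene is named if it has a symbol and is among the 12 with the lowest ratio, the 8 with the highest mean, a member of a list, or one of the 3 highest or lowest calls of a test. The other 5 genes with a symbol were added. The reference table held none of these identifiers, no sequences were at hand, and symbols come from supplementary tables of the study. The alternatives were RLE factors, DESeq2, filterByExpr, all 36 libraries, no passage block, own groups only, each replicate left out, other pseudocounts, minima and thresholds of the rule, and, added after seeing the data, a term for the sequencing run and fits without libraries that stood apart or were harvested later.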

Additional observations from a re-analysis of the deposited data

Results flagged for a closer look

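For 13 of the 249 time-lowered genes the change over time was more positive in Ibr+AS than in AS by a log2 FC above 1. This was a test of the difference between the time changes from 24 h to 72 h of 2 treatments. It called 2.33% of the expressed genes in either direction. Without replicate 3 it called 27 of the 249 genes. The same test against Ibr called 5 genes, again all more positive in Ibr+AS, and 0.797% of the expressed genes in either direction. Without replicate 1 or replicate 2 a single Ibr library of 72 h remains, so no counts are given for these fits. For the fit without replicate 3 no share of all expressed genes is given, so the shift to 27 genes is not read. TRIM36 was one of the 5 called against Ibr in the main fit, with a difference of 1.00 ± 0.15 (SE, adjusted p = 4.3e-07). Its estimate of 1.005 lay just past the limit of 1. Over 13 alternatives it ran from 0.95 to 1.02, so the fold limit was not met in all of them. TRIM36 fell in Ibr, whereas its Ibr+AS libraries of 24 h and 72 h overlapped. At 24 h it was already lower in Ibr+AS than in Ibr (-0.47 ± 0.10, adjusted p = 6.2e-05). No explanation was tested.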

How the results depend on the processing

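The median log2 FC of the time-lowered genes kept its sign under every alternative run in 9 of the 10 tests, the exception being Ibr+AS against DMSO at 48 h, whose median of -0.01 turned slightly positive under some of them (up to 0.03 without replicate 2). In the alternative fits of 60 calls on named genes, judged by the adjusted p-value, the call was kept 708 times, lost 72 times and reversed 0 times. Counting all genes at an adjusted p of at most 0.05 at any fold gave 78 (AS), 42 (Ibr) and 75 (Ibr+AS) genes over time, 27, 65 and 140 against DMSO at 48 h, 108 and 125 for Ibr+AS against Ibr and AS at 24 h, and 85 and 16 for the differences of the time changes from AS and Ibr, because no fold is then required. The shares of all expressed genes that met this condition stand by direction beside each test above. With all 36 libraries the median of Ibr over time was -0.15 in place of -0.09. The 2 DEGs of AS at 48 h became 1 with all 36 libraries, 5 with the own groups only, 1 when those of p128 at 72 h were left out and 4 without Ibr+AS 24 h replicate 1, and the cause was not tested. A threshold of -1 left 116 genes, and other settings of the rule gave 200 to 282. In Ibr over time, leaving out replicate 1 or replicate 2 keeps a single library of 72 h, so no range of DEGs is given. With libraries left out, the median there ran from -0.14 (without replicate 2) to -0.052 (without Ibr+AS 24 h replicate 1). Leaving out replicates in turn gave 11 to 15 DEGs over time in AS and 7 to 10 in Ibr+AS. It gave 2 to 5, 12 to 15 and 42 to 47 against DMSO at 48 h, and 11 to 20 and 20 to 31 at 24 h. For the difference of the time changes from AS it gave 14 to 27 (27 without replicate 3), and 247 to 289 genes by the rule. Without the replicate block the numbers of DEGs were 12, 10, 6, 2, 12, 44, 14, 24, 12 and 4 in the order of the tests above, against 12, 10, 7, 2, 12, 44, 14, 24, 13 and 5 with it. For the alternative fits no share of all expressed genes is given here, so their numbers are not read as particular to these genes. Genes near 2 CPM rest on few reads, and small changes in them were not detectable at this depth.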
